A study of Mus musculus with 6 samples.

Results

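Expression of 10 mouse genes of vesicle formation and release was examined in gastrocnemius, a calf muscle. The genes are the small GTPases Rab27a and Rab27b, the tetraspanins Cd63, Cd81 and Cd9, the sorting genes Tsg101, Pdcd6ip and Sdcbp, and the ATPases Vps4a and Vps4b. They were chosen by symbol as known vesicle genes, and all 10 were found once each among the 57010 genes of the table. RNA was sequenced from muscle of NSG mice (NOD/SCID/IL2Rγ-null), an immunodeficient strain, that bore subcutaneous left-flank tumours of MDA-MB-231/Rab27a KD, a human breast cancer line with a knockdown of RAB27A. Both groups carried these tumours. In the radiotherapy group (n = 3) the tumour received a single local X-ray dose of 10 Gy once it had reached about 800 mm3, and contralateral gastrocnemius was collected after 3 days. The other group (n = 3) is labelled as control, with the same tumour volume of 800 mm3 and with no dose or day given. The labels call the injected cells both WT and knockdown, give no age of the mice, name no control without the knockdown, and do not state whether each sample is a different animal. The p-values therefore reflect only how far these samples vary, which may be technical.

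Extracellular vesicles are membrane particles that cells release. Exosomes, a small class of them, form as inward buds of late endosomes. ESCRT complexes sort cargo and drive the budding, with Tsg101 in ESCRT-I, the accessory protein Alix (Pdcd6ip) with its partner syntenin (Sdcbp) as a parallel route, and the Vps4 ATPases pulling the ESCRT-III filaments apart at the end. Rab27a and Rab27b then dock the loaded endosomes at the plasma membrane, and the tetraspanins CD63, CD81 and CD9 are the usual surface marks of the released vesicles. In skeletal muscle, vesicles are released by fibres and by the cells between them. Because RAB27A was depleted in the human cancer cells and not in the host, the mouse genes below describe the muscle itself and check no label.

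The defining markers of the labelled tissue were present. The 10 fast fibre markers, among them Acta1, Ckm and Myh4, summed to between 146846 and 156965 TPM in controls and between 73888.8 and 123839 TPM after radiotherapy. TPM is a length-corrected share of all transcripts, so sequencing depth was unknown and levels of different genes could be set side by side. The mitochondrial genome supplied from 8.93 to 13.7% of the TPM total of a control library and from 15.1 to 22.5% of a radiotherapy library, which lowers the share left for every other gene. Radiotherapy 2 had the highest mitochondrial share and the lowest fast fibre sum. Fewer cells of a type and less RNA per cell cannot be told apart in whole muscle.

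Among the upstream sequences of these genes, those of the paralogues Vps4a and Vps4b and of Tsg101 are shown because Vps4a and Vps4b encode near-equivalent ATPases and differ widely in level, while Tsg101 and Vps4a varied alike from library to library (values below). Each line holds bases 200 to 51 before the transcription start, 5′ to 3′ along the gene, from RefSeq on GRCm38.p6, a build other than the mm9 that the submitters' processing notes name. Capitals mark the GC box, the letters GGGCGG or their reverse complement CCGCCC.
Vps4a (chr8:107031069-107031218, plus strand): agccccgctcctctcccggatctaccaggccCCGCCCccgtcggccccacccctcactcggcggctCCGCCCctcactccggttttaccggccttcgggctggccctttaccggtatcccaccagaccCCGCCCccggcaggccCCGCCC
Vps4b (chr1:106796776-106796925, minus strand): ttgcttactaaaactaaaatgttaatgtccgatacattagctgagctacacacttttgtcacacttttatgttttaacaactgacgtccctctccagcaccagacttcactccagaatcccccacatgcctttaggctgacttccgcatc
Tsg101 (chr7:46920020-46920169, minus strand): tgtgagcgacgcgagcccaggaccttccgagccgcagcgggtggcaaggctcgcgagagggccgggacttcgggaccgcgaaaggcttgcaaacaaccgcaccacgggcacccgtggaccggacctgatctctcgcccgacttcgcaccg
The Vps4a window held 4 GC boxes and was 75.3% G or C, while the Vps4b window held 0 and was 42.7% G or C. The Tsg101 window also held 0 GC boxes, although it was 69.3% G or C with 20 CG pairs, against 15 in Vps4a and 3 in Vps4b. Of 32851 promoter windows of the same 150 bases, 22.3% held a GC box on either strand, and the median window was 52.7% G or C with 3 CG pairs. Promoter windows were found for 8 of the 10 genes; besides Vps4a, only Cd9 (2) and Cd81 (1) held a GC box. The E-box CACGTG, carried by 3.56% of all windows, and the TATA box TATAAA, carried by 6.61%, were in none of the windows of these 8 genes. All windows end 51 bases before the start, so a TATA box nearer to the start was not looked for. The 8 genes are therefore not shown to lack a TATA box. The CCAAT box, read on both strands and carried by 23.5% of all windows, was in 1 window, that of the second Rab27a start. Each match is a description of these letters only.

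The levels of the 10 genes spanned a wide range, in an order that was the same in all 6 libraries at most steps. Cd63 was the most abundant, with a mean of 377 TPM over the 6 libraries, which placed it 322nd in the table. Cd81 followed at 63.8 TPM. Tsg101 (38.9 TPM), Vps4a (36.8 TPM), Cd9 (31.7 TPM) and Sdcbp (22.5 TPM) formed a middle group, then came Pdcd6ip at 7.01 TPM and Vps4b at 5.72 TPM, and last Rab27a at 0.745 TPM and Rab27b at 0.118 TPM. Cd63 exceeded Cd81, Cd81 exceeded Tsg101, Sdcbp exceeded Pdcd6ip, Vps4b exceeded Rab27a, and Rab27a exceeded Rab27b in 6 of 6 libraries. Neighbours whose order was not kept were Tsg101 and Vps4a (3 of 6 libraries), Vps4a and Cd9 (4 of 6), Cd9 and Sdcbp (5 of 6), and Pdcd6ip and Vps4b (5 of 6). The vesicle marks were plentiful in these muscles and the docking GTPases scarce.

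**Figure D1:**
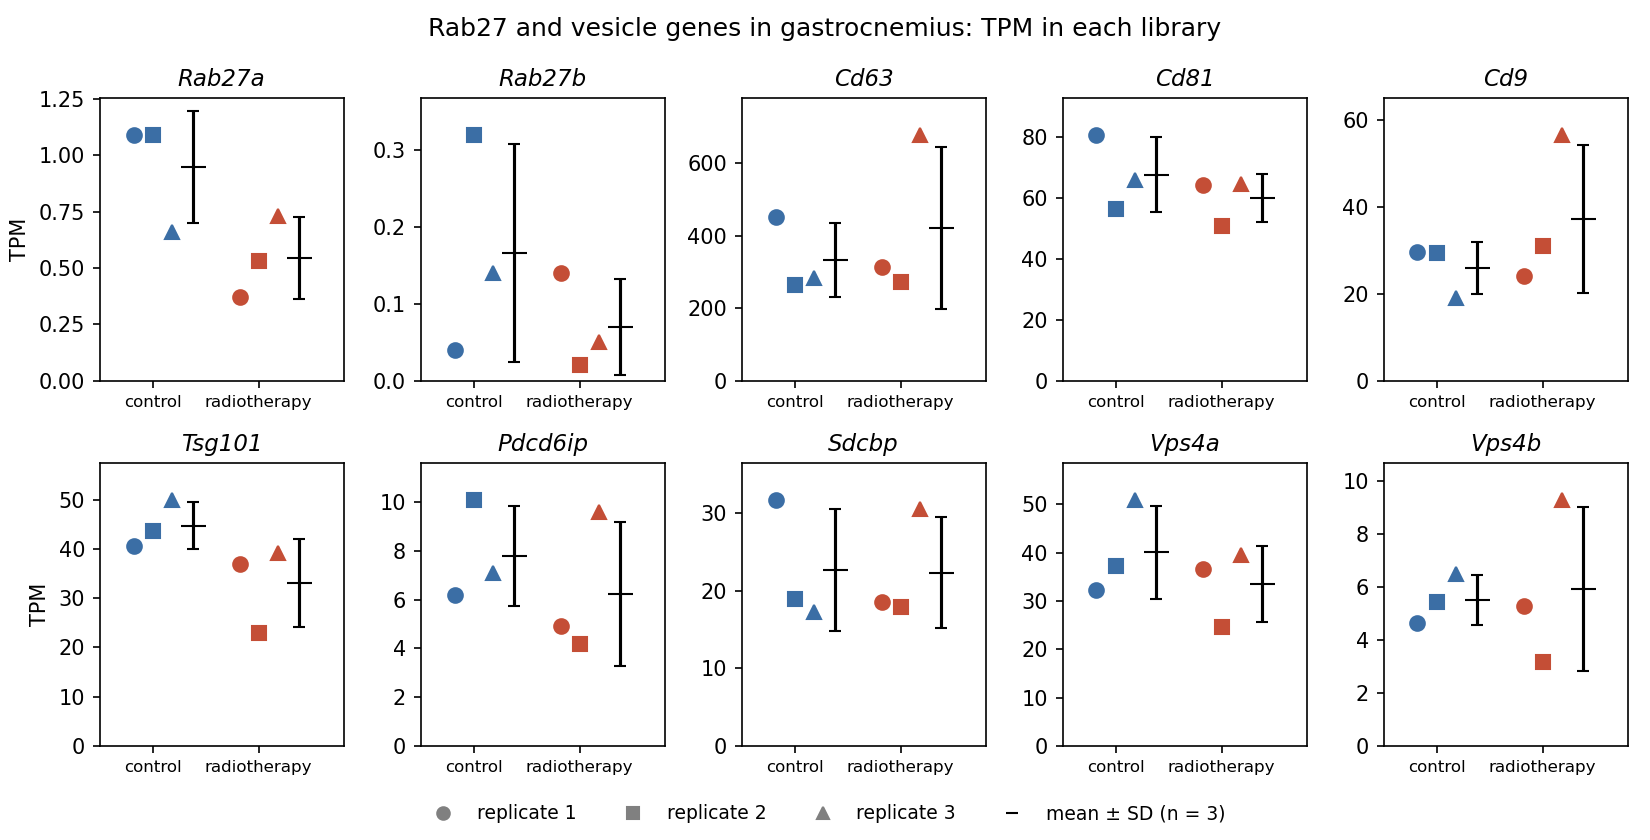
TPM of each of the 10 genes in the 3 control (blue) and 3 radiotherapy (red) libraries; the marker shape gives the replicate number, the black bar the group mean ± SD, and each panel has its own axis from 0. Cd63, Cd9 and Vps4b were highest in radiotherapy 3, and Tsg101 alone had all 3 radiotherapy values below all 3 control values.

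The comparison of radiotherapy with control asked whether host vesicle genes in a distant muscle differ when the tumour is irradiated. None of the 10 genes passed limma, fitted to log2(TPM + 1) over all genes, at a Benjamini-Hochberg adjusted p of 0.05 (limma, 0.977 or above for the 8 genes that passed the filter on low values, and 0.895 for Rab27a and Rab27b in the fit with no filter, where Cd9, Tsg101, Pdcd6ip and Vps4a had the same 0.895). The background was also 0: 0% passed of the 11375 genes that reached 1 TPM in 3 or more libraries, with 435 (3.82%) at an unadjusted p under 0.05 and none of the 10 genes among them. The smallest adjusted p of any gene was 0.394 (limma). Leaving out control 1 gave 6 genes past the threshold, none of them a vesicle gene named here. Of the 10 genes, 8 passed the filter on low values; 6 of these 8 had a negative log2 fold change (radiotherapy minus control), as did 67.9% of all genes tested, and 2 a positive one, as did 32.1%. The median log2 fold change of all genes tested was −0.11, and it lay between −0.04 and −0.0035 under 3 other scalings, so single values are to be read against that shift.

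**Figure D2:**
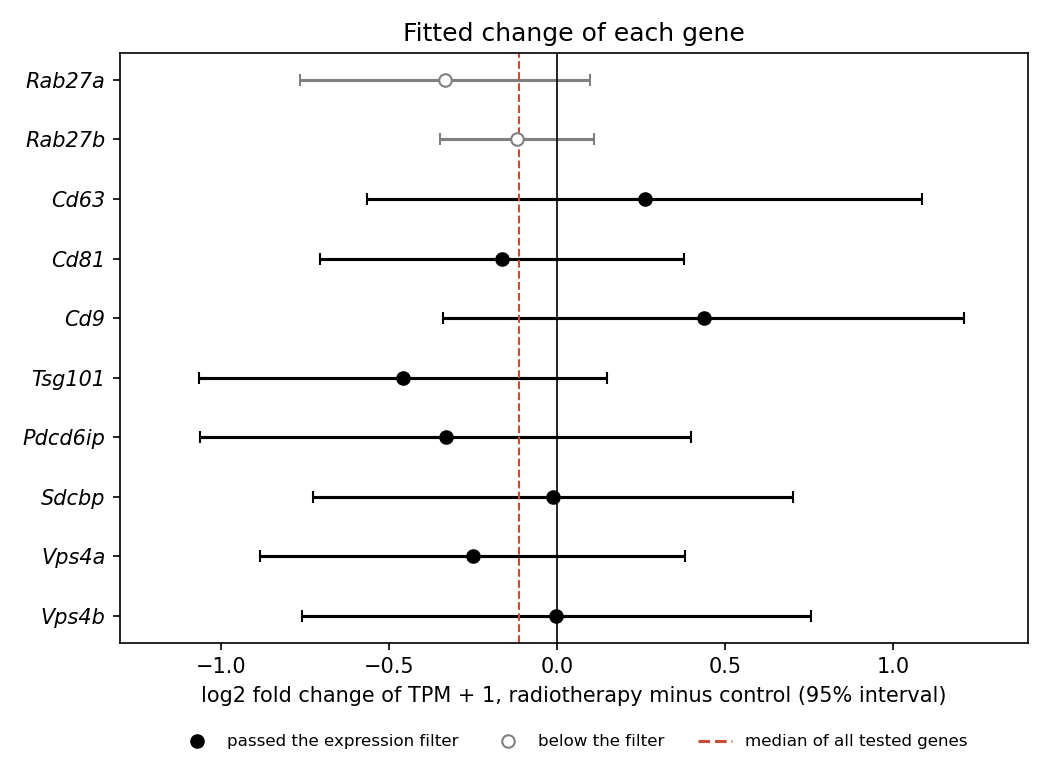
Fitted log2 fold change of TPM + 1 (x axis, radiotherapy minus control) with its 95% interval from limma for each of the 10 genes; open grey circles are the genes below the filter and the red dashed line is the median of all tested genes, −0.11. Every interval includes 0.

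Rab27a docks secretory endosomes and lysosome-related granules at the plasma membrane. It stood at 1.09 TPM in both control 1 and control 2 and at 0.66 TPM in control 3. After radiotherapy the 3 libraries gave 0.37, 0.53 and 0.73 TPM. Radiotherapy 3 lay above control 3, so the groups overlapped, while controls 1 and 2 lay above every radiotherapy library. The group means were 0.947 ± 0.248 and 0.543 ± 0.180 TPM (SD, n = 3 each), with a log2 fold change of −0.33 (SE 0.18, 95% interval −0.76 to 0.10, limma adjusted p = 0.895). Only 2 libraries reached 1 TPM, so the gene was below the filter and its value comes from the same fit with no filter, over 26621 genes. With a pseudocount of 0.1 in place of 1 the fold change was −0.71, since a pseudocount of 1 is larger than most of these values.

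Rab27b, the paralogue that moves vesicles along and is best known from platelets and secretory glands, was at 0.04, 0.32 and 0.14 TPM in controls and at 0.14, 0.02 and 0.05 TPM after radiotherapy. These values are close to the lower end of the table and the groups overlapped. The fit with no filter gave −0.12 (95% interval −0.35 to 0.11, limma adjusted p = 0.895), and −0.57 with a pseudocount of 0.1. The ratio of Rab27b to Rab27a in TPM ran from 0.0367 to 0.294 in controls and from 0.0377 to 0.378 after radiotherapy. Log2 ratios of TPM + 0.1 did not separate the groups (exact two-sided permutation p = 1, adjusted p = 1 over 5 ratios). With 3 samples against 3 that test cannot give a p below 0.1. The added 0.1 is also larger than Rab27b itself in control 1, radiotherapy 2 and radiotherapy 3. The 7 platelet markers, 2 of which passed the filter, summed to between 4.43 and 14.8 TPM in controls and between 4.83 and 16.2 TPM after radiotherapy, with the highest sums in radiotherapy 3 and control 1. Pf4 made up most of both sums, at 13.99 and 12.15 TPM. Ppbp (0.80 TPM), Itga2b (1.83 TPM), Gp9 (0.30 TPM) and Gp6 (0.07 TPM) were instead highest in control 2, the library in which Rab27b was highest, and Treml1 was at 0 in radiotherapy 1. The part of platelets in the values of Rab27b was not tested.

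Cd63, the tetraspanin of late endosomes and lysosomes, was at 451, 265 and 282 TPM in controls and at 314, 273 and 679 TPM after radiotherapy. Radiotherapy 3 and control 1 stood above the other 4 libraries, which lay between 265 and 314 TPM in both groups. The log2 fold change was 0.26 (SE 0.37, 95% interval −0.56 to 1.09, limma adjusted p = 0.979), and without radiotherapy 3 it was −0.14. A pseudogene, Cd63-ps, was at 0.80 TPM or less, and reads shared with it could not be traced.

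Cd9, a tetraspanin of the plasma membrane, was at 29.6, 29.4 and 19.2 TPM in controls and at 24.15, 31.0 and 56.7 TPM after radiotherapy. Radiotherapy 3 again stood above all others, and radiotherapy 1 lay between the controls. The log2 fold change was 0.44 (SE 0.34, 95% interval −0.34 to 1.21, limma adjusted p = 0.977); without radiotherapy 3 it was 0.10. Cd81, a tetraspanin of the plasma membrane that pairs with immunoglobulin-domain proteins, varied least of the 10, with a highest value 1.58 times its lowest. It was at 80.75, 56.3 and 65.8 TPM in controls and at 64.35, 50.96 and 64.6 TPM after radiotherapy, so that radiotherapy 2 alone lay below the control range (log2 fold change −0.16, SE 0.24, limma adjusted p = 0.980).

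Ratios within a library are not changed when all its TPM values are multiplied by 1 factor. Cd63 exceeded Cd81 by 4.29 to 5.59 times in controls and by 4.87, 5.37 and 10.5 times in radiotherapy 1, 2 and 3. Cd9 stood to Cd81 at 0.366, 0.522 and 0.291 in controls and at 0.375, 0.608 and 0.878 after radiotherapy. Neither ratio separated the groups in an exact two-sided permutation test of log2 ratios (p = 0.4 and 0.2, adjusted p = 0.833 for both; 3 samples against 3 cannot give a p below 0.1). The difference in log2 ratio was 0.43 for Cd63 and 0.61 for Cd9, and 0.08 and 0.32 without radiotherapy 3.

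Markers of other cells were high in the same libraries. The 10 macrophage and leukocyte markers summed to 368 TPM in control 1 and 186 TPM in radiotherapy 3, and to between 33.2 and 52.2 TPM in the other 4 libraries; 7 of the 10 passed the filter and none was at 0. The 6 neutrophil markers, 4 of which passed the filter and none of which was at 0, summed to 1617.1 TPM in control 1 and 672 TPM in radiotherapy 3, against 148 to 280.2 TPM elsewhere. The group ranges were 35.8 to 368 TPM in controls and 33.2 to 186 TPM after radiotherapy for the first list, and 273 to 1617.1 and 148 to 672 TPM for the second. Control 1 and radiotherapy 3 are also the 2 libraries highest for Cd63 and Sdcbp. The pair was not particular to these lists. It also had the highest sums for endothelial cells (137 TPM in control 1, 148 TPM in radiotherapy 3) and smooth muscle (166 and 178 TPM). The same held for fibro-adipogenic progenitors (717 and 387 TPM) and platelets (14.8 and 16.2 TPM). Fast fibre, Schwann cell, adipocyte, erythroid, satellite cell and skin lists had other top pairs. The 6 Schwann cell markers, all above 0 and past the filter, summed to between 33.6 and 113 TPM in controls and to 33.3, 188 and 606 TPM in radiotherapy 1, 2 and 3, and radiotherapy 3 and 2 are the 2 libraries highest for Cd9. The summed markers ran from 101.5 to 137 TPM in controls and from 109 to 148 TPM after radiotherapy for endothelial cells, from 97.9 to 166 and from 143 to 178 TPM for smooth muscle, from 229 to 717 and from 299 to 387 TPM for fibro-adipogenic progenitors, and from 265 to 865 and from 580.1 to 2289.3 TPM for adipocytes. Erythroid markers ran from 3352.4 to 7203.1 and from 929.8 to 1617.5 TPM, satellite cell markers from 15.6 to 20.8 and from 10.7 to 32.04 TPM, and skin markers from 3.05 to 4.26 and from 2.61 to 4.08 TPM, with Mlana at 0 in all 6 libraries. No marker of these lists that passed the filter passed limma, and the others were not tested. The filter kept 6 of 8 fibro-adipogenic, 5 of 6 adipocyte, 2 of 6 satellite cell and 1 of 7 skin markers. It kept all endothelial, smooth muscle and erythroid markers. The part of these cells in the values of Cd63, Sdcbp and Cd9 was not tested.

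Tsg101, the ESCRT-I subunit that binds ubiquitinated cargo, was at 40.6, 43.7 and 49.9 TPM in controls and at 37.0, 22.9 and 39.3 TPM after radiotherapy. It was the only one of the 8 tested genes whose groups did not overlap, with all 3 radiotherapy values below all 3 controls. Such a separation downward was seen in 7.54% of all genes tested, and in 9.24% in either direction. The means were 44.7 ± 4.77 and 33.1 ± 8.89 TPM (SD, n = 3 each), with a log2 fold change of −0.46 (SE 0.27, 95% interval −1.06 to 0.15, limma adjusted p = 0.977). The margin was narrow, 40.6 against 39.3 TPM. With the mitochondrial genes removed and the rest rescaled the groups overlapped, at 45.3 TPM in control 1 and 46.3 TPM in radiotherapy 3, and without radiotherapy 2 the log2 fold change was −0.22.

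Pdcd6ip encodes Alix, which recruits ESCRT-III to the bud. It was at 6.19, 10.1 and 7.09 TPM in controls and at 4.90, 4.18 and 9.60 TPM after radiotherapy. Radiotherapy 1 and 2 lay below every control and radiotherapy 3 lay above controls 1 and 3, with overlap (log2 fold change −0.33, SE 0.32, limma adjusted p = 0.977). Its value was −0.64 without radiotherapy 3 and −0.13 without radiotherapy 2. The ratio of Pdcd6ip to Tsg101 ran from 0.142 to 0.231 in controls and from 0.132 to 0.244 after radiotherapy, with no separation of the groups (exact permutation p = 0.9, adjusted p = 1).

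Sdcbp encodes syntenin, the adaptor that joins syndecans and CD63 to Alix. It was at 31.7, 19.0 and 17.3 TPM in controls and at 18.6, 17.9 and 30.6 TPM after radiotherapy, so that 1 library of each group, control 1 and radiotherapy 3, stood above the other 4. The log2 fold change was −0.01 (95% interval −0.73 to 0.70, limma adjusted p = 0.999), and it was positive, between 0.08 and 0.15, under each of 3 other scalings. In the GENCODE M21 annotation 78 of its 6904 exon bases are shared with Nsmaf on the opposite strand, a gene at 17.5 to 29.1 TPM here; the labels do not state strand-specific counting, so these reads cannot be divided.

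Vps4a was at 32.25, 37.2 and 50.9 TPM in controls and at 36.7, 24.6 and 39.4 TPM after radiotherapy. Control 3 was highest and radiotherapy 2 lowest, as for Tsg101, and the groups overlapped (log2 fold change −0.25, SE 0.28, 95% interval −0.88 to 0.38, limma adjusted p = 0.979). Its exons share 57 of 2522 bases with Pdf on the opposite strand, a gene at 14.5 to 31.98 TPM. Vps4b was at 4.63, 5.42 and 6.50 TPM in controls and at 5.29, 3.18 and 9.27 TPM after radiotherapy, with both the lowest and the highest value in the radiotherapy group. Its log2 fold change was −0.0019 (95% interval −0.76 to 0.75, limma adjusted p = 0.999) and turned positive, at 0.07 to 0.11, under 3 other scalings. Vps4b stood to Vps4a at 0.128 to 0.146 in controls and at 0.144, 0.129 and 0.235 in radiotherapy 1, 2 and 3, so that the other 5 libraries lay between 0.128 and 0.146. The log2 ratio did not separate the groups (exact permutation p = 0.5, adjusted p = 0.833), and the difference of 0.24 was −0.016 without radiotherapy 3.

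**Figure D3:**
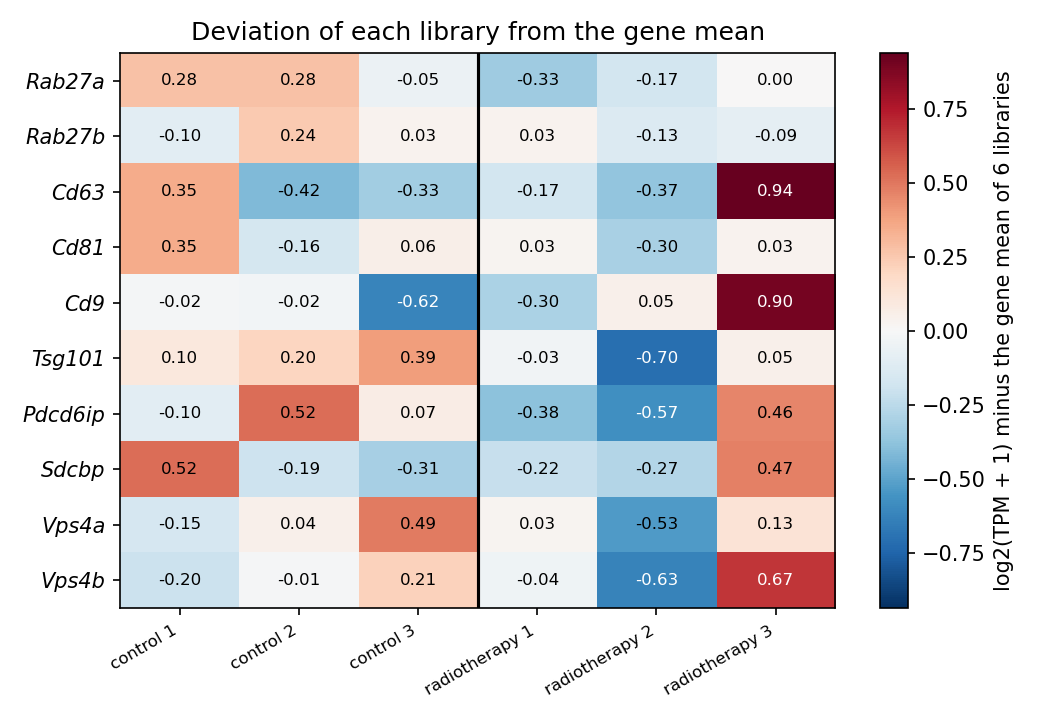
Log2(TPM + 1) of each gene in each library minus the gene's mean over the 6 libraries, with the value in each cell; the vertical line parts control from radiotherapy. Cd63 and Cd9 were highest in radiotherapy 3 (0.94 and 0.90 above their means) and Tsg101 and Vps4b lowest in radiotherapy 2 (0.70 and 0.63 below).

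The extreme values of the 10 genes were spread over both groups, with the most in radiotherapy 2. Radiotherapy 2 held the lowest value of 6 of the 10 genes (Rab27b, Cd81, Tsg101, Pdcd6ip, Vps4a and Vps4b) and the highest of 0. Control 1, control 2 and radiotherapy 3 each held the highest value of 3 genes, with Rab27a tied between controls 1 and 2, and control 3 held that of 2. The lowest value fell in control 3 for 2 genes and in control 2 and radiotherapy 1 for 1 gene each. Pearson's r of log2(TPM + 1) over the 6 libraries, given as a description, was 0.91 between Cd63 and Sdcbp, 0.90 between Tsg101 and Vps4a, and 0.77 between Vps4a and Vps4b. Rab27a and Rab27b gave 0.29, and Rab27a gave 0.19 with Cd63. All of these points share the library, its composition and its scaling. The genes most alike by the same measure, out of 11375, were Pank1 (r = 0.99) and Fmo5 (0.97) for Rab27a, Ftl1 and Rpl3-ps1 (both 0.99) for Cd63, Selp and Hnrnpa3 (0.997 and 0.993) for Cd9, and Nabp2 and Egln2 (both 0.998) for Tsg101. They were Pdcd4 and Cul9 (both 0.98) for Rab27b, Zmat5 and Tspan7 (both 0.98) for Cd81, Pip4k2c and Kif5b (both 0.994) for Pdcd6ip, Cks1b and Ppia (0.997 and 0.996) for Sdcbp, and Polr3f and Pcnx4 (0.996 and 0.995) for Vps4b. With 6 libraries such values are common: 428 genes reached an r above 0.95 with Tsg101, 78 with Cd63 and 11 with Rab27a.

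Other genes of the same routes were taken from 12 lists with 124 genes in all, of which 123 are in the table and 106 passed the filter. None passed limma over all genes tested, 82 of the 106 had negative values and 24 positive ones, and 2 (Tbc1d10c and Rab4a) had an unadjusted p under 0.05, against 3.82% of all genes tested. The groups did not overlap for 10 of them downward and for 1 upward, against 7.54% and 1.70% of all genes tested. Their median log2 fold change was −0.17 beside −0.11 over all genes; it lay between −0.08 and −0.05 under 3 other scalings, with 67 and 66 of 106 genes negative after median-of-ratios scaling and quantile normalization and 64 of 108 without mitochondrial genes. The median was −0.01 without radiotherapy 2 (57 of 106 negative) and −0.37 without radiotherapy 3 (92 of 104 negative).

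Of the Rab27 effectors and regulators, 6 of 15 passed the filter, with 1 positive and 5 negative values. The Slp effectors that link Rab27 to membranes were scarce: Sytl2 was at 0.29 to 1.51 TPM, Sytl4 at 0.11 to 0.37 TPM and Sytl1 at 0.03 to 0.25 TPM, while Sytl3 and Sytl5 were at 0.05 TPM or less. The melanosome adaptor Mlph was at 0.13 TPM or less, and Unc13d, a tethering protein of granule release, was at 0.59 to 2.32 TPM. Tbc1d10c, of a family that switches Rab GTPases off, had the smallest p of the list. It was at 6.06, 6.84 and 5.46 TPM in controls and at 3.99, 2.42 and 3.81 TPM after radiotherapy, with no overlap (log2 fold change −0.71, SE 0.24, limma adjusted p = 0.977). The escort protein gene Chm, which readies Rab proteins for their lipid anchors, gave −0.29 (SE 0.26).

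The 16 other Rab genes, most of them endosomal, were all above the filter, with 2 positive and 14 negative values. Their median was −0.23, which was −0.13 to −0.07 under 3 other scalings, where 9 or 10 were negative. That median was −0.07 without radiotherapy 2 and −0.45 without radiotherapy 3. The late endosome gene Rab7 was the most abundant of them, at 118 to 247 TPM in the 6 libraries. Rab4a, of fast endosome recycling, was at 12.7, 11.9 and 15.0 TPM in controls and at 9.79, 5.26 and 8.72 TPM after radiotherapy, without overlap (log2 fold change −0.70, SE 0.27, limma adjusted p = 0.977). Rab3a, a GTPase of synaptic and secretory vesicles, gave −0.51 (SE 0.26). Rab2b, the only one of the list without overlap upward, was at 1.35, 1.05 and 0.78 TPM in controls and at 1.53, 1.69 and 1.68 TPM after radiotherapy (log2 fold change 0.36, SE 0.20, limma adjusted p = 0.977); it was singled out after its values were seen.

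Among the ESCRT genes beside Tsg101, all 3 of ESCRT-0 had negative values (median −0.07; 1 or 2 of 3 were negative under other scalings, and the median was 0.11 without radiotherapy 2 and −0.40 without radiotherapy 3), led by Stam at −0.21 and Stam2 at −0.07. Of 7 tested ESCRT-I genes 6 were negative, as under each of 3 other scalings, and the median was −0.36, or −0.28 to −0.25 with those scalings. Of all genes tested, 67.9% were negative in the main fit. That share was not computed under the other scalings. Mvb12a was at 23.3, 24.1 and 26.05 TPM in controls and at 18.7, 15.65 and 18.4 TPM after radiotherapy, without overlap (log2 fold change −0.46, SE 0.22, limma adjusted p = 0.977), and Vps37b gave −0.37 (SE 0.20). Vps37a, of the same complex, had a positive value of 0.29 (SE 0.28). The 3 ESCRT-II genes had a median of 0.00089, with Vps36 at −0.17 and Vps25 at 0.06. ESCRT-III proteins are the substrates of the Vps4 ATPases, and Vta1 is a cofactor of these ATPases. The 11 tested genes of ESCRT-III and Vta1 were all negative (median −0.25, led by Chmp6 at −0.55, SE 0.30, and Chmp4b at −0.47, SE 0.29). The smallest of these values were −0.00035 for Chmp2a and −0.01 for Ist1. Under each of 3 other scalings 8 of 11 were negative (median −0.16 to −0.10). The main median of −0.25 became −0.08 without radiotherapy 2 (8 of 11 negative) and −0.43 without radiotherapy 3 (11 of 11).

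**Figure D4:**
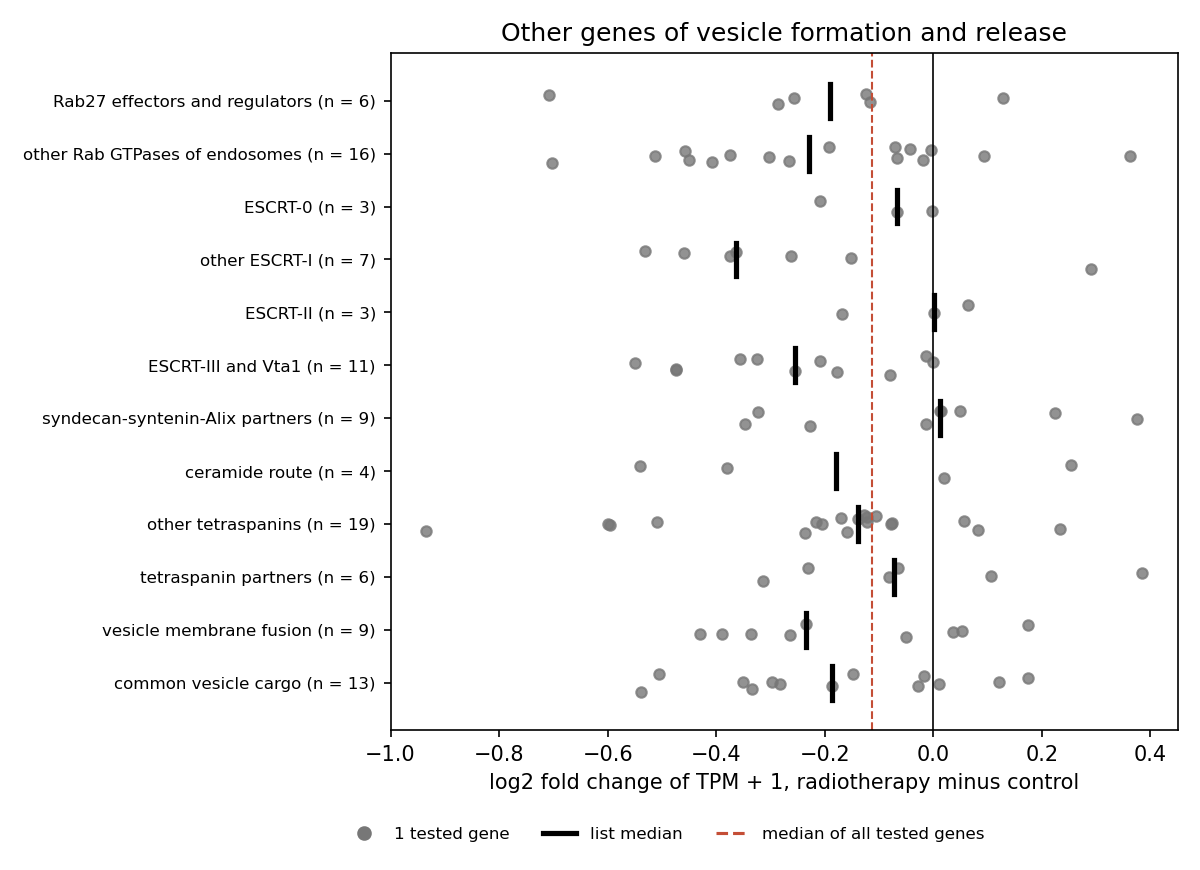
Log2 fold change of TPM + 1 (x axis, radiotherapy minus control) of the tested genes of 12 lists; each grey point is a gene, each black bar a list median, and the red dashed line the median of all tested genes, −0.11. The list medians lie between −0.36 (other ESCRT-I) and 0.01 (syndecan, syntenin and Alix partners), and no gene passed limma.

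Partners of syntenin and Alix were split, with 5 positive and 4 negative values among 9 tested genes and a median of 0.01 (0.06 without radiotherapy 2 and −0.19 without radiotherapy 3). The largest of them were Ptpn23, an Alix-like phosphatase gene, at 0.38 (SE 0.24), and the syndecan Sdc2 at −0.35 (SE 0.27). On the ceramide route, which forms vesicles without ESCRT, 2 of 4 tested genes were positive (1 of 4 without radiotherapy 3). Smpd3, the neutral sphingomyelinase most used to block exosome release, was at 0.14 to 0.37 TPM and below the filter. Smpd1, the acid sphingomyelinase of lysosomes, was at 15.5, 16.5 and 22.2 TPM in controls and at 14.8, 9.62 and 11.9 TPM after radiotherapy, without overlap (log2 fold change −0.54, SE 0.26, limma adjusted p = 0.977). The margin was narrow. As a share of the transcripts that are not mitochondrial, Smpd1 was higher in radiotherapy 1 than in control 1, so its groups overlapped. Sgms1 gave −0.38 (SE 0.30).

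Of the other tetraspanins, 19 of 20 passed the filter and 16 of the 19 were negative (11 to 14 under 3 other scalings), with a median of −0.14. Without radiotherapy 2 that median was 0.01, with 10 of 19 positive, and without radiotherapy 3 it was −0.24. Tspan8 had the highest mean of them, at 109, 170 and 191 TPM in controls and at 106, 63.0 and 150 TPM after radiotherapy (log2 fold change −0.60, SE 0.35), and Tspan2 gave −0.51 (SE 0.29). The leukocyte tetraspanin Cd53 was at 18.6 TPM in control 1 and at 0.53 to 2.84 TPM in the other 5 libraries. Of 6 tetraspanin partners 2 were positive and 4 negative (median −0.07, or 0.03 without radiotherapy 2 and −0.22 without radiotherapy 3). Among them the integrin genes Itga5 and Itgb1 gave 0.38 (SE 0.33) and −0.31 (SE 0.32). Itga5 was at 4.42 to 5.65 TPM in controls and at 6.18, 4.10 and 11.5 TPM after radiotherapy. Itgb1 was at 65.6 to 72.8 TPM in controls and at 58.6, 34.55 and 85.7 TPM after radiotherapy. Of 9 tested genes of membrane fusion 6 were negative (median −0.24, or −0.08 without radiotherapy 2 and −0.39 without radiotherapy 3), with Stxbp3 at −0.43 (SE 0.31) and the SNARE Ykt6 at −0.39 (SE 0.30). Of 13 genes of common vesicle cargo 10 were negative (median −0.19, or −0.09 to −0.03 with 3 other scalings, where 8 were negative). Without radiotherapy 2 the cargo median was 0.06, with 8 of 13 positive, and without radiotherapy 3 it was −0.44, with 13 of 13 negative. The lysosomal membrane gene Lamp1 was at 242, 250.4 and 315 TPM in controls and at 221, 123 and 227 TPM after radiotherapy, and the lipid raft gene Flot2 at 15.85, 15.4 and 16.2 and at 13.2, 6.93 and 13.8 TPM. Neither group of values overlapped for Lamp1 or Flot2, with log2 fold changes of −0.54 (SE 0.28) and −0.50 (SE 0.29) and a limma adjusted p of 0.977 for both. Mitochondrial genes held 10.38% of the TPM total in control 1 and 18.88% in radiotherapy 1. As a share of the other transcripts, Lamp1 was higher in radiotherapy 1 than in control 1, so its groups overlapped.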

How the data were processed

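Values are TPM as the authors deposited them, without depth, in a single table of 6 samples; HISAT2, StringTie, RSEM and mm9 are named per the submitters' processing notes, with roles, versions and annotation not given in the sources used here. Per the labels' protocols, TruSeq libraries were prepared from total RNA. Genes reaching 1 TPM in 3 or more of 6 samples were fitted as log2(TPM + 1) with limma 3.58.1 in R 4.3.3 (eBayes with trend, group as the only term, two-sided, Benjamini-Hochberg adjustment, threshold 0.05); genes below the filter took their value from the fit with no filter. Fold changes are understated for low genes. Ratios used log2 of TPM + 0.1 and exact permutation tests, adjusted over 5 ratios. At most 3.35% of values were equal between any pair of libraries. The fit was also run on simulated data with independent noise for each gene. That setting lacks the differences in composition between these libraries, so no conclusion is drawn from it. The genes and the 12 pathway and 12 cell marker lists were chosen with earlier results of these data known. Named were all 10 genes, up to 2 genes of smallest p per list, and the 2 most alike genes by r (those for Vps4a are not reported here); genes given by level or range (Sytl1 to Sytl5, Mlph, Unc13d, Rab7, Rab2b, Vps37a, Smpd3 and Cd53) were added after their values were seen. Alternatives were, for the scale, quantile normalization, median-of-ratios scaling and removal of mitochondrial genes; for low values, a filter of 5 TPM or none and a pseudocount of 0.1; and for the model, limma without the trend, the replicate number as a block and each sample left out; list medians under these were added after seeing the data. Python 3.11.15 with matplotlib 3.10.9 drew the figures.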

Additional observations from a re-analysis of the deposited data

How the results depend on the processing

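None of the 10 genes passed limma under any alternative run, and the lowest adjusted p of any of them was 0.493 (limma, without radiotherapy 3). The count of all genes past the threshold was 0 under each alternative of scaling, filter, pseudocount and fit, and 0 to 6 when 1 library was left out, with 6 only without control 1. Signs turned for Sdcbp, from −0.01 to 0.081 with median-of-ratios scaling, 0.15 with quantile normalization and 0.12 without mitochondrial genes, and for Vps4b, from −0.0019 to 0.070, 0.10 and 0.11. With 1 library left out the log2 fold changes ran from −0.25 to 0.25 for Sdcbp, −0.34 to 0.31 for Vps4b and −0.14 to 0.51 for Cd63. The differences of log2 ratios then ran from −0.36 to 0.43 for Rab27b to Rab27a, −0.016 to 0.40 for Vps4b to Vps4a and −0.13 to 0.31 for Pdcd6ip to Tsg101; Cd63 to Cd81 (0.08 to 0.64) and Cd9 to Cd81 (0.32 to 0.93) stayed positive. The replicate numbers state no pairing, and deviations of same-numbered libraries correlated at −0.06, 0.02 and −0.11; with the replicate number as a block, 0 genes passed (smallest limma adjusted p 0.818). Depth is unknown in TPM, so no counting interval could be given for the low values of Rab27a and Rab27b.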
